A study of Mus musculus with 2 samples.

Results

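The G2/M, spindle and kinetochore genes are a set of 48 mouse genes that act from the end of G2 to the separation of daughter cells. They were chosen by name, and every non-control probe whose RefSeq transcript accession belongs to one of them was kept. This gave 70 probes for 47 of the 48 genes, out of 41163 probes and 17302 named genes on the array. No probe matched Prc1. The RNA came from mouse hybridoma cells of the line labelled 1H5F9, fusions of an antibody-making B cell with a myeloma cell. They were cultured for 4 h in serum-containing medium with 0 µg/ml (untreated) or 5 µg/ml of BSP-II, a peptide from the bursa of Fabricius, and hybridised in 1 colour to 1 array per dose. The study's design text speaks of 2 independent experiments, and both arrays used here carry replicate number 1. No value below therefore has a replicate check or a test, and "higher" and "lower" describe these 2 arrays.

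Entry into mitosis is driven by CDK1 bound to cyclin A or B. The spindle checkpoint then holds the anaphase-promoting complex (APC/C) inactive until kinetochores, the protein plates on centromeres, are attached to microtubules. Once released, the APC/C with Cdc20 marks cyclins and securin for destruction, chromatids part and the cell divides. Most of these genes are transcribed late in the cell cycle, under NF-Y, which binds CCAAT boxes, and the MuvB complexes with B-Myb and FoxM1, which bind the cell cycle genes homology region (CHR). In RNA from bulk cells, fewer cells in G2 or mitosis and less mRNA per cell cannot be told apart.

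Each signal was divided by its array's 75th percentile, and the result is called the scaled signal. Differences are log2 values of BSP-II minus untreated, from which the median difference over all genes, −0.03, was subtracted, so that 0 stands for the median gene. The error given with a difference is Feature Extraction's own error of the spots, in log2 units. Variation between cultures, RNA extractions or hybridisations is not part of it. The arrays held 24683 (untreated) and 27284 (BSP-II) probes well above background, and no gene probe was saturated. Of the 17302 genes, 12857 had a brightest probe well above background on the 2 arrays, and these are all genes in what follows. All 47 members with a probe were among them. Of the markers of the cell, all 8 plasma cell genes were detected on both arrays, with summed scaled signals of 777 and 714, led by the antibody joining chain gene Jchain at 488 and 435. Of 6 B lineage genes 5 were detected on each array, with sums of 63.5 and 58.4. Pax5, the factor of B cells before the plasma cell stage, was not well above background on either array. Markers of other cells were dim. For T cells 5 and 6 of 6 genes were detected, with sums of 1.31 and 1.03, for macrophages 3 and 4 of 5 (0.43 and 0.55), and for fibroblasts 4 of 6 on each array (0.37 and 0.36). Any part of these cells in the results was not tested.

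Mitotic genes were slightly lower on the array of BSP-II cells, with the largest differences among the B-type cyclins, cyclin F, the phosphatase Cdc25c, the APC/C partners Cdc20 and Ube2c, and the kinetochore subunit Spc24. Of the 47 members, 40 (85.1%) lay below the median gene, against 50% of all genes. Their median difference was −0.12, which is 1.08-fold, with an SD over members of 0.15 and a range from −0.44 to 0.21. The median of all genes is 0 by construction, and that of the 6429 genes at or above the median level, called brighter genes here, was 0.02.

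The members' differences were small. At least 1.2-fold lower than the median gene were 8 members (17.0%), against 16.4% of all genes, a share near the background. Dim genes scatter more on these arrays, and most members are bright, so the same count was also read among the 34 brighter members. Of these, 6 (17.6%) were at least 1.2-fold lower, against 5.01% of the 6429 brighter genes, and 29 (85.3%) lay below the median gene, against 43.6%. No member was at least 1.2-fold higher, against 10.4% of all genes and 6.14% of the brighter ones. None differed by 1.5-fold in either direction, a size that 4.35% of all genes passed on the low side and 1.39% on the high side.

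The spot error of a member's difference had a median of 0.20. By this measure 13 members lay lower than the median gene by more than their own error, 1 (Smc4) lay higher and 33 lay within it. Only Ccnb2, Ccnf and Spc24 lay more than 2 errors away. The member median depended on which spot signal was used. It was −0.06 both on the raw median signal and with normexp, a model-based background correction, on that signal. On the raw median signal 6 members (12.8%) were at least 1.2-fold lower, against 11.1% of all genes. With normexp there were 4 (8.51%), against 12.6%, so the share of members was then under that of all genes. The share among brighter genes was not counted for either signal.

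**Figure D1:**
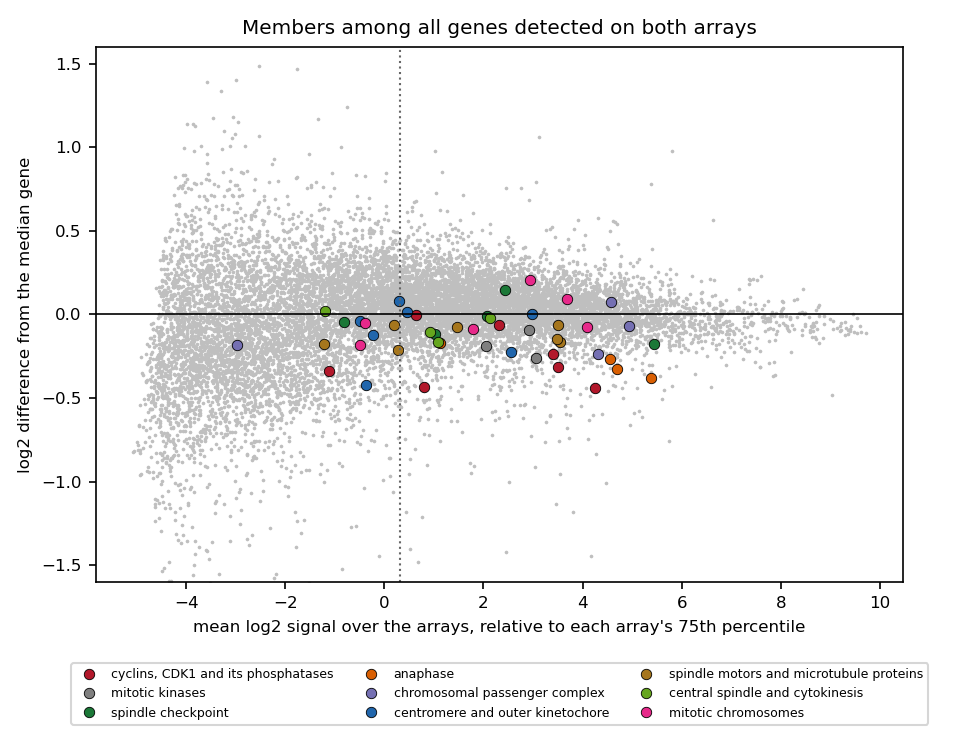
Difference of BSP-II minus untreated from the median gene (log2, vertical) against the mean scaled signal over both arrays (log2, horizontal) for 12857 genes in grey and the 47 members in colours of their role; the dotted line is the median level, and 30 grey genes lie beyond 1.6 on the vertical axis. The scatter of grey genes widens at low signal, and 34 members lie at or right of the dotted line, 29 of them below 0.

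**Figure D2:**
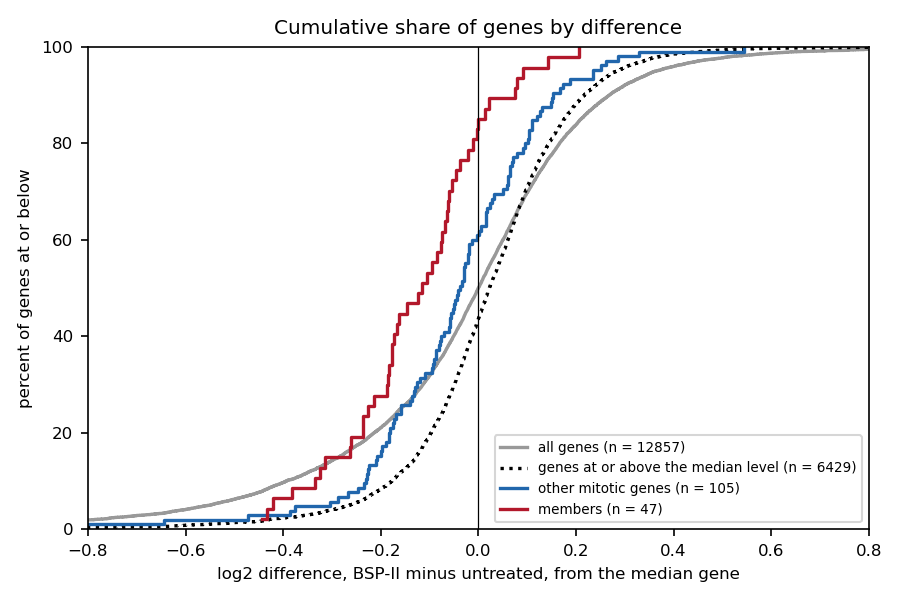
Percent of genes (vertical) at or below each log2 difference from the median gene (horizontal) for the 47 members, 105 other mitotic genes, all 12857 genes and the 6429 brighter genes. The curve of the members crosses 0 at 85.1%, against 50% for all genes and 43.6% for the brighter ones, and ends at 0.21.

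The promoters are shown because they hold what most members share beyond their role. RefSeq promoters of build GRCm38.p6, from 250 bases before to 50 after the transcription start, were listed for 40 of the 48 members. The table lists 27025 genes in all. Both strands were searched for the CHR letters TTTGAA, for TTTAAA, which some CHR elements carry, for CCAAT, and for 4 E2F-type sites (TTTGGCGC, TTTCCCGC, TTTCGCGC and TTTGCCGC). Within the member promoters 1 pair of matches of different motifs overlapped. The first 4 below have the lowest differences among members with a searched promoter. Spc24 and Cdc25c, which also lay low, had no promoter among those searched. Bub1 has the highest difference among them by its brightest probe, though its second probe gave −0.37. Mki67, the highest whose 2 detected probes both lay above the median gene, was added after the values were seen. All matches are in capitals.
Ccnb2, chr9:70421505-70421804, minus strand: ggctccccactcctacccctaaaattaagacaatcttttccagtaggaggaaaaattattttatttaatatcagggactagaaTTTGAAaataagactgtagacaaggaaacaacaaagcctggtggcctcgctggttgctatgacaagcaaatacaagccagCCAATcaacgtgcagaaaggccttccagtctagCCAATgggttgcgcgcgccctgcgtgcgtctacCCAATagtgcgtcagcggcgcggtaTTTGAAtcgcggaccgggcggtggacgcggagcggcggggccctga
Ccnf, chr17:24251360-24251659, minus strand: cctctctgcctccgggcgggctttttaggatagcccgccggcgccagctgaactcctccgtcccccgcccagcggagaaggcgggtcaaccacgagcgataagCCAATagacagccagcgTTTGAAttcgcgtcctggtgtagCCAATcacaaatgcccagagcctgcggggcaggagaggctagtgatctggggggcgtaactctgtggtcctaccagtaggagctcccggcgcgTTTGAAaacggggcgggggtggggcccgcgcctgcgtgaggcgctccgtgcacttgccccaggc
Cdc20, chr4:118437294-118437593, minus strand: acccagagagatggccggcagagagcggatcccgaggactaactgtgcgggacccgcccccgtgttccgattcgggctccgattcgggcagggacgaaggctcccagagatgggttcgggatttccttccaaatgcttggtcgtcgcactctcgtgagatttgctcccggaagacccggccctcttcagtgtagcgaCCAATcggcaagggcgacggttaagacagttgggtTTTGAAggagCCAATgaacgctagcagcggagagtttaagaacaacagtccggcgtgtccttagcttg
Ube2c, chr2:164769679-164769978, plus strand: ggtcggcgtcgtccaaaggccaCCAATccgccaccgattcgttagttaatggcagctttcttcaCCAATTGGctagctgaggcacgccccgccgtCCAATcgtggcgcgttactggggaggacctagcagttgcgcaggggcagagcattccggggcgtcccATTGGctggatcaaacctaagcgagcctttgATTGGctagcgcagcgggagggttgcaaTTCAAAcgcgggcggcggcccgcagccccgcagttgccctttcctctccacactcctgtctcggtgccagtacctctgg
Bub1, chr2:127831810-127832109, minus strand: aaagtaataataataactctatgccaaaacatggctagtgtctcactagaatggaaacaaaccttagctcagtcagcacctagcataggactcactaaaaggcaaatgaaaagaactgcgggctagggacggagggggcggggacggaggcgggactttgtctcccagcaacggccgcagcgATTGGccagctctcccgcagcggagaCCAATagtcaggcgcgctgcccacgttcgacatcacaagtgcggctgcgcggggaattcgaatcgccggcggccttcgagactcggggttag
Mki67, chr7:135716330-135716629, minus strand: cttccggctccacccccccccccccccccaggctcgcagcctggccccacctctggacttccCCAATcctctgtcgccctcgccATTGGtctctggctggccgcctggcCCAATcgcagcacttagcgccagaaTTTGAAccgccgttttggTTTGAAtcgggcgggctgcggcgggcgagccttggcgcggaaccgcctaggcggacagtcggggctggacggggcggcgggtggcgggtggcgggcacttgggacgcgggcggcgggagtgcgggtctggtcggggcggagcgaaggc

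Each of the 4 low members had a TTTGAA match close to the start, with its first base at 5 (Ccnb2), −14 (Ccnf), −18 (Cdc20) and −29 (Ube2c, on the other strand), counted from 1 at the start with no base 0. Each also held CCAAT upstream of that match: 3 in Ccnb2, at −87, −54 and −21, and 6 in Ube2c. Bub1 had CCAAT at −68 and −42 and no TTTGAA or TTTAAA in this window. Mki67, which was not lower, held TTTGAA at −116 and −98 and 3 CCAAT matches upstream of them, so these letters occur at both ends of the order.

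Of the 40 members with a searched promoter, 29 (72.5%) held TTTGAA, against 20.2% of all 27025 genes and 14.2% of the 5300 brighter genes with a searched promoter. CCAAT was found in 31 (77.5%), against 41.1% of all genes, and in 21 (52.5%) at least 2 times, against 13.3%. Both motifs were present in 26 (65.0%), against 8.97%. Of the 42 TTTGAA matches, 31 (73.8%) lay after −100, against 41.6% of such matches in all promoters. Bub3, Ect2 and Prc1 have 2 overlapping promoters each, and a site that lies in both was counted in both. TTTAAA was present in 9 promoters (22.5%, against 14.9%), among them Ccnb1 at −42, downstream of CCAAT at −67. E2F-type letters were in 2 (5.00%), against 2.61% of all genes and 5.23% of the brighter ones, so the share was near that of brighter genes. Neither TTTGAA nor CCAAT was in the window of Birc5, Pttg1, Nusap1, Mad2l1, Nuf2 or Ncaph.

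Within the set, the members with TTTGAA were not the lower ones. The 28 detected members with TTTGAA had a median difference of −0.09, and the 11 without it −0.18. With 2 or more CCAAT matches the median was −0.15 over 21 members, and with fewer −0.09 over 18. A match is a description of letters, and no binding was measured.

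**Figure D3:**
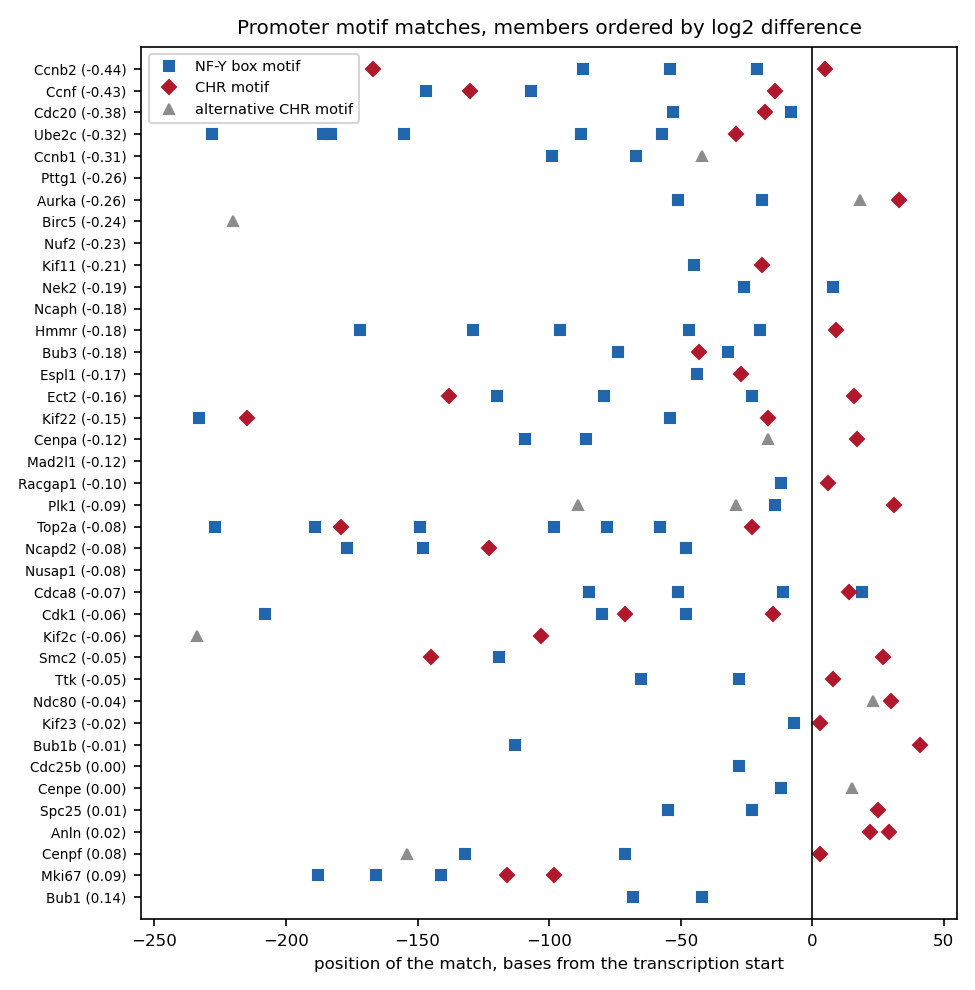
Positions of motif matches (horizontal, bases from the transcription start) in the promoters of 39 detected members, ordered from the lowest to the highest difference given in parentheses; squares are CCAAT, diamonds TTTGAA and triangles TTTAAA, and for Bub3 and Ect2 the first of 2 listed promoters is drawn. Most diamonds lie near the start, and they occur along the whole order, from Ccnb2 at −0.44 to Cenpf at 0.08 and Mki67 at 0.09.

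Cyclins, CDK1 and its phosphatases had a median of −0.31 over 7 genes. All 7 lay below the median gene and 4 were at least 1.2-fold lower. On the raw median signal the group's median was −0.16, with 5 below the median gene and 3 at least 1.2-fold lower. With normexp it was −0.15, with 5 below and only Ccnb2 past 1.2-fold. Cdk1 and Cdc25b lay just above the median gene in both.
Ccnb2, one of the B-type cyclins that activate CDK1, had a scaled signal of 22.5 untreated and 16.2 with BSP-II, a difference of −0.44 ± 0.20 (spot error), or 1.36-fold lower. Of the brighter genes, 1.68% lay lower still. Ccnb1, the other mitotic B-type cyclin, was measured by 3 probes at different places on the array. Its brightest probe read 12.8 untreated and 10.1 with BSP-II, a difference of −0.31 ± 0.20. The other probes read 3.87 and 3.03 (−0.33), and 3.80 and 3.07 (−0.28). The Ccnb1 probes thus spread by only 0.05 and all lay lower.

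Ccnf, the F-box cyclin that recruits substrates to a ubiquitin ligase, read 2.05 untreated and 1.49 with BSP-II, a difference of −0.43 ± 0.20. That value was −0.16 on the raw median signal and −0.15 with normexp, so its size rests on the processed signal. Ccna2, the cyclin of S phase and early mitosis, read 11.5 and 9.60 (−0.24 ± 0.20).
Cdc25c, a phosphatase that removes inhibitory phosphates from CDK1, read 0.52 and 0.41 (−0.34 ± 0.21), and its second probe gave −0.17. Its relative Cdc25b did not share this: the brightest probe, at a spot with strongly different neighbours, gave 0.00, the next −0.08, and only a dim probe gave −0.38 ± 0.39. Cdk1 itself read 5.09 and 4.79, a difference of −0.06 ± 0.20. The second Cdk1 probe was not well above background on both arrays.

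Mitotic kinases outside the complexes below had a median of −0.19 over 3 genes, and of −0.10 once local medians on the array were subtracted. Aurka, the kinase of centrosomes and spindle poles, read 9.19 untreated and 7.53 with BSP-II (−0.26 ± 0.20), just short of 1.2-fold. Nek2, which separates centrosomes, read 4.43 and 3.83 (−0.19 ± 0.20). Plk1, which acts at entry, at kinetochores and in cytokinesis, read 7.93 and 7.29 (−0.09 ± 0.20). All of them were lower with BSP-II, and only Aurka passed its spot error.

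Genes of anaphase had a median of −0.29, and all 4 were below the median gene. Cdc20, the APC/C activator that the checkpoint holds back, had scaled signals of 48.0 untreated and 36.2 with BSP-II (−0.38 ± 0.20, 1.30-fold lower). Only 2.46% of the brighter genes lay lower. Ube2c, the ubiquitin-conjugating enzyme that works with the APC/C, read 29.1 and 22.9 (−0.32 ± 0.20). Pttg1, which is securin, the inhibitor of separase, read 26.1 and 21.3 (−0.26 ± 0.20). Espl1, separase itself, the protease that cuts cohesin, read 2.33 and 2.03 (−0.17 ± 0.20) from a spot with strongly different neighbours. Cdc20, Ube2c and Pttg1 were each at least 1.2-fold lower, among signals far above background. Pttg1 was only just so, and it was short of 1.2-fold in 9 of 13 alternatives to the processing, which put it between −0.29 and −0.21.

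Spindle checkpoint genes had a median of −0.05 over 5 genes, with none past 1.2-fold. The median was −0.11 when the detected probes of a gene were combined by their median. Bub3, a partner of both Bub kinases, read 46.5 and 40.4 (−0.18 ± 0.20), and its other probe gave −0.21. Mad2l1, the checkpoint protein that captures Cdc20, was at −0.12, the kinase Ttk (Mps1) at −0.05 and Bub1b (BubR1) at −0.01.
Bub1, the kinase that marks centromeric histones, had 2 bright probes that went opposite ways. The first read 5.23 untreated and 5.67 with BSP-II (0.14 ± 0.20), and the second 5.48 and 4.18 (−0.37 ± 0.20). They carry different RefSeq transcript accessions, both assigned to Bub1. Their gap of 0.51 is wider than that between the probes of most members, and the gene has no settled direction.

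In the chromosomal passenger complex, which corrects wrong attachments, the median was −0.13 over 4 genes. Birc5 (survivin) read 21.9 and 18.2 (−0.24 ± 0.20). The kinase Aurkb read only 0.14 and 0.12 (−0.18 ± 0.24), a dim signal with a wider error. Cdca8 (borealin) gave −0.07, and 0.02 by a second probe. Incenp, the scaffold, read 23.5 and 24.3, a difference of 0.07 ± 0.20. The 4 subunits of this complex thus lay on both sides of the median gene.

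Centromere and outer kinetochore genes had a median of −0.04 over 7 genes. The Ndc80 complex, the main microtubule anchor of kinetochores, has 4 subunits. Spc24 read 0.90 untreated and 0.66 with BSP-II (−0.42 ± 0.20), and Nuf2 read 6.43 and 5.40 (−0.23 ± 0.20). Ndc80 read 0.73 and 0.70 (−0.04 ± 0.21), and Spc25, which pairs with Spc24, read 1.38 and 1.37 (0.01 ± 0.20). Each of these genes was read by 1 probe. The centromeric histone Cenpa was at −0.12 and Cenpf at 0.08. The kinesin Cenpe was at 0.00 by its brightest probe, 0.05 by the next and −0.55 ± 0.33 by a dim one.

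Spindle motors and microtubule proteins had a median of −0.15, and all 7 lay below the median gene without any passing 1.2-fold. The median was −0.06 on the raw median signal and with normexp. Kif11, the kinesin that pushes spindle poles apart, read 1.32 and 1.12 (−0.21 ± 0.20). Hmmr, a spindle assembly factor, was at −0.18, Kif20a, needed for cytokinesis, at −0.17, and the chromokinesin Kif22 at −0.15. Nusap1 (−0.08), Tpx2, the activator of Aurora A (−0.06), and the microtubule depolymerase Kif2c (−0.06) were closer to 0. Tpx2 came to 0.00 once local medians were subtracted.

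For the central spindle and cytokinesis the median was −0.06 over the 4 genes with a probe. Ect2, the exchange factor that switches on RhoA, gave −0.16 and −0.34 by its probes. Racgap1 gave −0.10 and, by the second probe, 0.05. Its partner kinesin Kif23 gave −0.02 and 0.02. The ring protein Anln was at 0.02, while a dim second probe gave −0.30 ± 0.39.

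Proteins of mitotic chromosomes had a median of −0.06 over 6 genes and included Smc4, the highest member. The group's median was −0.01 on the raw median signal and −0.002 with normexp. It was 0.04 when each detected probe was counted singly, so its sign was not stable. Smc4, an ATPase of condensin, read 7.20 untreated and 8.15 with BSP-II (0.21 ± 0.20), and 88.8% of the brighter genes lay lower. With local medians on the array subtracted it was 0.13, within its spot error. On the raw median signal it was 0.34 and with normexp 0.36, past 1.2-fold in both. Its condensin partners did not share this: Smc2 was at −0.05 by its brightest probe with 0.04 to 0.10 at 3 dim ones, Ncapd2 at −0.08 with −0.09, and Ncaph at −0.18. Mki67, the surface protein of mitotic chromosomes used as a proliferation marker, read 12.7 and 13.2 (0.09 ± 0.20), and its other probe gave 0.08. Top2a, which untangles chromatids, was at −0.08. Neither of these common proliferation markers was among the 22 members (46.8%) at least 1.1-fold lower than the median gene, a size that 27% of all genes passed. At least 1.1-fold higher by their brightest probe were 2 members, Smc4 and Bub1, whose second probe was lower, against 24.1% of all genes.

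**Figure D4:**
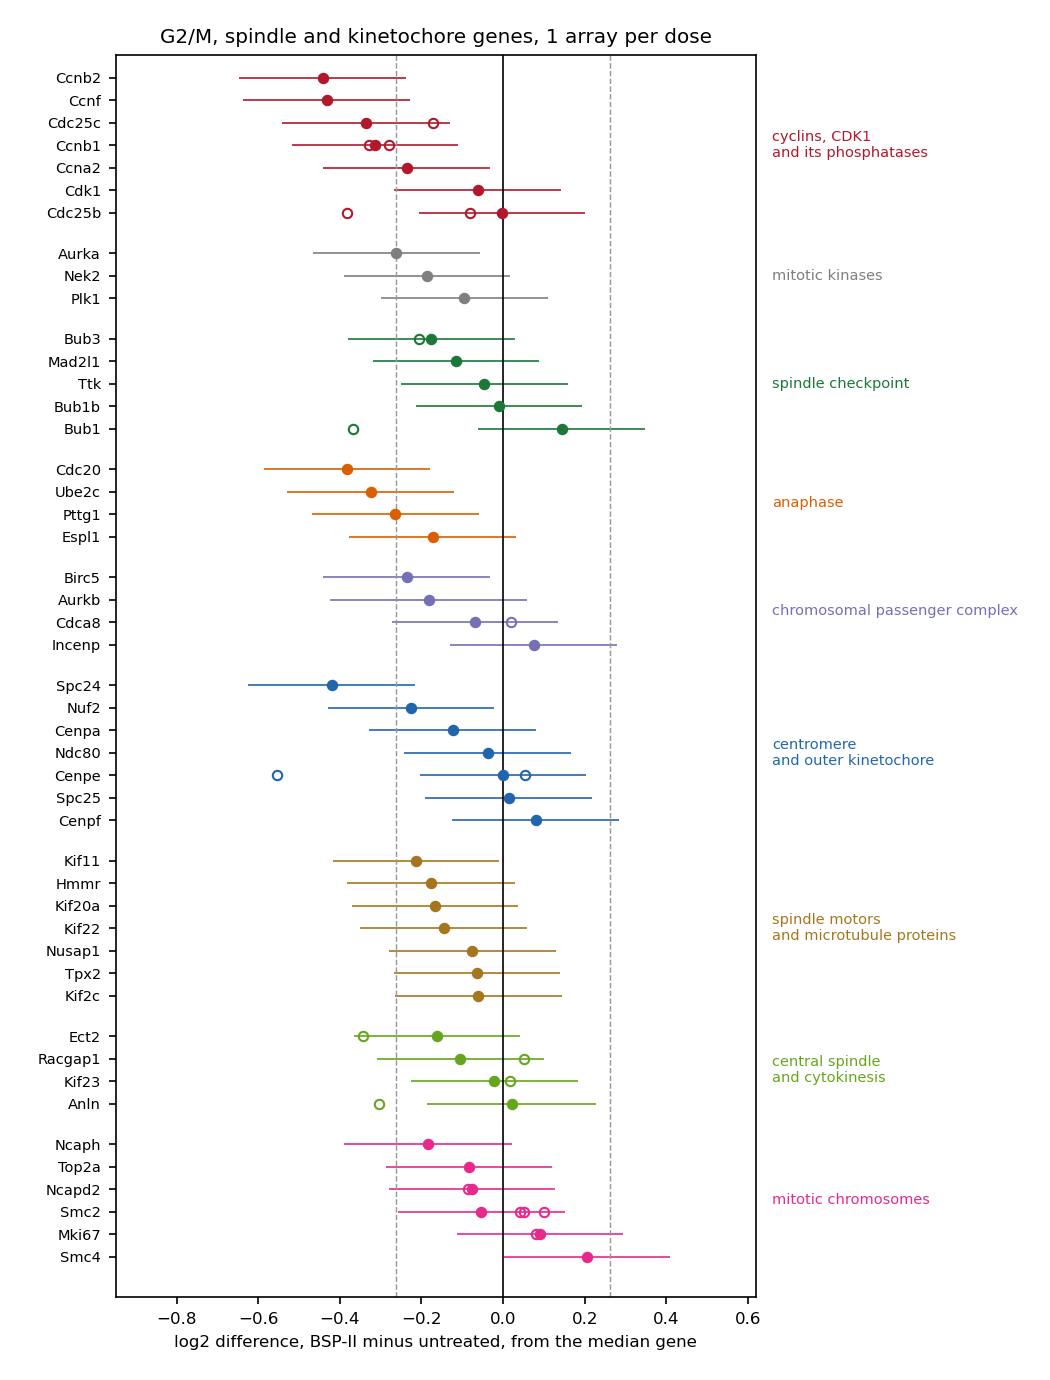
Difference of each member from the median gene (log2, BSP-II minus untreated, horizontal), grouped by role; filled points are the brightest probe with its spot error as a bar, open points other detected probes, and dashed lines mark 1.2-fold. All 7 genes of the cyclin group and all 4 of anaphase lie left of or at 0, while chromosome proteins reach 0.21 with Smc4.

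Without the cyclin and anaphase groups, which were singled out after their values were seen, the other 36 members had a median of −0.08, and 29 of them lay below the median gene. Only 1 of the 36 (2.78%), Spc24, was at least 1.2-fold lower, against 16.4% of all genes.

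Some members can be read from more than 1 probe. Of the 70 member probes 66 were well above background on both arrays, and 51 of these lay below the median gene. The other 4, second probes of Cdk1, Cenpf, Kif11 and Top2a, were dim, and 2 of them were detected on the BSP-II array only. The brightest probes had a median of −0.12 over 47 genes, and the 19 other detected probes −0.09, with 11 below the median gene. Among the 14 members with several detected probes, all probes lay below the median gene in 6 (42.9%). This held for 27.6% of all 4032 genes with several detected probes and 27.1% of the 2709 brighter ones. In 1 member (Mki67) all lay above, and in 7 they fell on both sides. The range between probes of a gene had a median of 0.15 in these members, 0.16 in all genes and 0.13 in the brighter genes.

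Position on the array was looked at because spots that differ strongly can lie together. Local medians of the difference around the members' spots ran from −0.10 to 0.08. After they were subtracted the member median was −0.11, with 36 of 47 below the median gene. The 29 members in the earlier rows had a median of −0.09 and the 18 in the later rows −0.17. Of the chosen probes, those of Cdc25b, Espl1, Racgap1 and Mki67 sat near spots that differed strongly, and without all such spots the median was −0.11 over 46 members.

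Mitotic genes outside the set lay nearer to the median gene. Of 116 such genes in 5 lists, 105 were detected, with a median of −0.04. Below the median gene were 64 of the 105. At least 1.2-fold lower were 8 (7.62%), against 16.4% of all genes and 5.01% of the brighter ones. At least 1.2-fold higher were 3 (2.86%), against 10.4% and 6.14%. Both shares were thus under those of all genes, but the lower share was above that of the brighter genes. The other mitotic genes were not split by level. In the regulators of G2/M transcription (13 genes, median −0.02), Foxm1, the activator of late cell cycle genes, read 2.67 and 2.24 (−0.23 ± 0.20). Rbl1 (p107), a pocket protein, was at −0.22, the MuvB subunit Lin37 at 0.26 and the dim E2f4 at −0.47 ± 0.38.
Genes of mitotic entry and the APC/C (22 genes, median −0.06) went both ways: the CDK partner Cks1b read 42.2 and 35.3 (−0.23 ± 0.20), while the APC/C subunits Cdc26 and Cdc16 were at 0.25 and 0.23. Anapc2 was at 0.54, with −0.23 and 0.47 at its other probes. Other centromere and kinetochore genes (32, median −0.04) were led by the dim scaffold Knl1 (−0.81 ± 0.29), then Cenpp (−0.29), Ska3 (−0.23) and Cenpm (−0.23). Among other spindle and cytokinesis genes (25, median −0.04) the largest differences were all at probes under the median level: Fam83d (−0.64 ± 0.22), the kinase Cit (−0.39), Ckap2l (−0.38) and Ckap5 (0.33). Condensin and cohesin genes (13, median −0.03) had none past 1.2-fold by the brightest probe, with Pds5b at −0.25, Stag1 and Cdca5 at −0.20 and −0.18, and Stag2 at 0.17. The other probes of Stag1 gave −0.39 and −0.24, that of Pds5b −0.02, that of Cdca5 −0.06 and that of Stag2 0.11.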

How the data were processed

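Per the submitters' processing notes, the arrays were read out with Agilent Feature Extraction, version 10.5.1.1. Per the file headers, the deposited intensity columns used here are the median signal of the spot, the median signal of the background around it, and a processed, background-subtracted signal with its error. Flags deposited as 0 or 1 (unit "other") mark saturated, outlier, positive and well-above-background spots. The deposited value table is on a log2 scale. It lists 23296 probes, and over 99.4% of its values equal the log2 processed signal plus −4.85 (untreated) or −4.94 (BSP-II) to within 0.001. Its columns have medians of 2.88 and 2.99. The direction and scale follow from this match, while the rule behind the constants is not stated in the labels or files.

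Left out were control spots and 189 outlier spots. Repeat spots were averaged on the log2 scale. Array 75th percentiles were 309 and 356. The lowest probe signals well above background were 11.4 and 7.66, and local background had medians of 46 and 37. Gene names come from unversioned RefSeq accessions and a GRCm38.p6 gene table; 25091 of 41163 probes matched 1 gene. A gene was represented by its brightest probe. Members and gene lists were chosen with earlier results of these data known. Any member may be named, and of each other list the 4 genes with the largest difference are. A spot counted as near strongly different spots when 2 or more others within 3 rows and columns differed at least 2-fold in a shared direction. With 1 array per group no test was possible, and the number of arrays limits the precision. Scaling and the medians of changed genes and members were tested on simulated data, with noise smaller than the spot error. Signal choice, position steps and the motif search were not part of that test. Alternatives covered scaling, signal, background correction, filter, probe rule, position and fold. Python 3.11.15, numpy 2.4.6, pandas 2.3.3, statsmodels 0.14.6, matplotlib 3.10.9 and limma 3.58.1 were used.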

Additional observations from a re-analysis of the deposited data

How the results depend on the processing

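No paired analysis was possible because each group has 1 array. The member median stayed below the median gene in all 14 alternatives to the processing, from −0.14 to −0.06; it was −0.0584 with the raw median signal and −0.0582 with normexp, and the cause was not tested. The count of members at least 1.2-fold lower was 4 with normexp (8.51%, against 12.6% of all genes) and 15 when each of the 66 probes was counted singly (22.7%, against 16.1% of all probes), which counts more items. At least 1.2-fold higher was 1 member, Smc4, on the raw median signal and 1 with normexp. With a fold of 1.1 the counts were 22 lower and 2 higher, against 27% and 24.1% of all genes, and with a fold of 1.5 they were 0 and 0. Scaling to the median put the median difference of all genes at 0.10 in place of −0.03 and left differences from the median gene as they were. The deposited value table holds nearly the same processed signal plus a constant. Neither of these alternatives could therefore differ much from the main result.

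In the 13 alternatives that give a value per gene, 31 members lay below the median gene in every one that measured them, and Incenp, Cenpf, Mki67 and Smc4 above it. Racgap1, Tpx2, Cdk1, Smc2, Ndc80, Kif23, Bub1b, Cdc25b, Cenpe, Spc25, Anln and Bub1 changed sides, so no direction holds for them. No member past 1.2-fold changed its sign. Of 210 list medians under alternatives, 61 moved by over 1.5 times or changed sign, mostly those near 0. Normexp used the median signal, since the files hold no mean signal. Signal over background limits the dim second probes: those of Cdk1, Cenpf, Kif11 and Top2a give no usable difference.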

Other observations

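Promoter letters can also be set against the differences of the brighter genes, members included. Of these, 5300 had a searched promoter. The median difference from the median gene was −0.01 over the 380 that hold both TTTGAA and CCAAT, and 0.02 over the other 4920. For TTTGAA alone the medians were 0.00 over 753 genes and 0.03 over 4547, and for an E2F-type match −0.01 over 277 and 0.02 over 5023.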
